A study of Mus musculus with 24 samples.

Results

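The let-7 and miR-98 family is a group of microRNAs (miRNAs) that share 1 seed, the stretch that pairs with target mRNAs. It was followed here through the activation of muscle stem cells of the mouse, which rebuild skeletal muscle after injury. The 9 members are the mouse assays mmu-let-7a, mmu-let-7b, mmu-let-7c, mmu-let-7d, mmu-let-7e, mmu-let-7f, mmu-let-7g, mmu-let-7i and mmu-miR-98 (written below without the species prefix), taken by assay name with passenger strands left out, of 584 miRNA assays in all. The cells came from male C57BL/6 mice at the age of 8 weeks. Quiescent stem cells (QSC) form the 0 h group, and activated stem cells (ASC) were harvested 36, 60 and 72 h after injury. The labels name no other treatment and no genetic change in either kind of cell. Total RNA was measured by real-time PCR on TaqMan rodent cards of types A and B, with 3 arrays per group and card, 24 arrays in total. All 9 member assays sit on card A, so each group rests on 3 arrays. According to the design text these replicates are technical, so every p-value covers the spread between technical repeats and none between mice.

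As background, let-7 was found in the worm Caenorhabditis elegans as a regulator of developmental timing, and its mature sequence is nearly identical from worms to mammals. In mammals the family is low in many early progenitors and abundant in differentiated adult tissues. Its known targets include mRNAs of Ras, Myc and the chromatin protein Hmga2, and the RNA-binding protein Lin28 blocks the processing of let-7 precursors. A miRNA hairpin gives a guide strand, which acts on targets, and a passenger strand, which is usually degraded.

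The mature sequences are shown because the 9 assays read RNAs that differ at very few bases. They are those of RefSeq (GRCm38.p6), 5′ to 3′, with the seed (bases 2 to 8) in capitals:
let-7a: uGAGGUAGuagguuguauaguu
let-7b: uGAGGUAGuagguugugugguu
let-7c: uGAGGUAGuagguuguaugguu
let-7d: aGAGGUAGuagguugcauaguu
let-7e: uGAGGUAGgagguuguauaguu
let-7f: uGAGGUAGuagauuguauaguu
let-7g: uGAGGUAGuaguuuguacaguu
let-7i: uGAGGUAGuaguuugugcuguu
miR-98: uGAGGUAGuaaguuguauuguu

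All 9 matched a RefSeq entry, all are 22 bases long, and there is 1 seed among them. The 36 pairs of members differ at 1 to 6 bases outside the seed, and 4 pairs differ at 1 base. Positions are counted from 1 at the 5′ end, with the base of the first-named member first. From let-7c to let-7b the difference is A17G, from let-7a to let-7c it is A19G, from let-7a to let-7e U9G and from let-7a to let-7f G12A. From let-7g to let-7i the differences are A17G and A19U. How far each assay reads its near-identical relatives was not tested, so values of such pairs are uncertain to that extent.

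The members come from hairpins on 7 chromosomes (GRCm38.p6), several of them in clusters. let-7d (chr13:48536078-48536099, minus strand), let-7f (chr13:48537889-48537910, minus) and let-7a (chr13:48538239-48538260, minus) lie together, with gaps between neighbouring hairpins of 1714 and 261 bases. let-7c (chr15:85706616-85706637, plus) and let-7b (chr15:85707325-85707346, plus) come from hairpins 621 bases apart. A second let-7c hairpin (chr16:77599672-77599693, plus) lies 656 bases from that of miR-99a, and let-7e (chr17:17830366-17830387, plus) lies 367 bases from miR-125a. A second let-7f (chrX:151912353-151912374, plus) is the neighbour of miR-98 (chrX:151913229-151913250, plus), with a gap of 785 bases. A second let-7a hairpin on chromosome 9 lies 5211 bases from miR-100 and 45114 bases from miR-125b-1. let-7g (chr9:106178846-106178867, plus) and let-7i (chr10:122985698-122985719, minus) have no other member or partner near them. RefSeq's table gives several hairpins for some members, and an assay of the mature strand cannot tell them apart.

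Each level below is the threshold cycle (Ct) of U6 RNA, averaged over the array's U6 spots, less the assay's own Ct. It is in log2 units, and a higher value means more RNA relative to U6. Each assay has its own efficiency, so levels of different assays are not read as relative amounts. Only changes are compared between members, and level differences within an array serve to follow such changes. A member was called changed at a Benjamini-Hochberg adjusted p below 0.05 in limma and at least a 2-fold change. Between 181 and 212 assays were detected per array of card A and 89 to 120 per array of card B. The mean U6 Ct on card A went from 15.37 in quiescent cells to 14.88, 15.39 and 15.12 in the groups at 36, 60 and 72 h. Relative to U6, the control RNA snoRNA202 moved by -0.88, -2.40 and -3.05 at 36, 60 and 72 h against 0 h (log2). Y1 moved by 0.65, 0.11 and -0.32, and snoRNA135 by -0.22, -0.34 and -0.87. U87 moved by -0.15 and -1.06 at 36 and 60 h and was lower still at 72 h. Each of these control RNAs thus lay below its 0 h level at 72 h relative to U6. Results of the members are therefore also given with other normalizers, of which U87 is not one. Ct values carry no read depth, and the number of arrays limits the precision. In 6 members a Ct was recorded on 12 of 12 arrays, from 19.3 to 26.4 cycles, and the SD of a group of 3 arrays was 0.02 to 0.19 log2 units.

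Relative to U6, let-7i was the 1 member of the 6 that lay above its quiescent level at every later time. Its log2 levels on the 3 arrays were -11.06, -10.85 and -10.90 at 0 h and -6.74, -6.60 and -6.73 at 36 h. They were -7.75, -7.65 and -7.75 at 60 h, and -9.08, -9.11 and -8.97 at 72 h. No array of one time overlapped with those of another, and the order from high to low was 36, 60, 72 and 0 h. Against 0 h, let-7i was 19.0-fold higher at 36 h (log2 4.25 ± 0.07, SE, n = 3 arrays per group; adjusted p = 6.08e-12 in limma). The change was 9.32-fold at 60 h (log2 3.22 ± 0.07, adjusted p = 3.87e-11) and 3.69-fold at 72 h (log2 1.88 ± 0.07, adjusted p = 2.06e-09). Each step after 36 h was a decrease, by 1.03 ± 0.07 from 36 to 60 h and by 1.34 ± 0.07 from 60 to 72 h. In such bulk samples, fewer cells of a type and less RNA per cell cannot be told apart.

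let-7b and let-7c, the pair from neighbouring hairpins on chromosome 15, were highest in quiescent cells relative to U6 and lower at every later time, whereas with snoRNA202 both were slightly above 0 h at 36 and 60 h. The log2 levels of let-7b were -4.94, -4.58 and -4.73 at 0 h and -5.67, -5.42 and -5.53 at 36 h. At 60 h they were -7.12, -7.01 and -6.92, and at 72 h -7.91, -7.93 and -8.02. The times did not overlap in let-7b. The levels of let-7c were -4.07, -4.17 and -3.91 at 0 h, -4.92, -4.68 and -4.71 at 36 h, -6.38, -6.29 and -6.33 at 60 h, and -7.33, -7.28 and -7.32 at 72 h. They followed the same order without overlap. Against 0 h, let-7b was at -0.79 ± 0.10 at 36 h, below the 2-fold limit (adjusted p = 4.57e-05), and fell 4.83-fold by 60 h (log2 -2.27 ± 0.10, adjusted p = 8.37e-09) and 9.22-fold by 72 h (log2 -3.20 ± 0.10, adjusted p = 3.87e-10). The values of let-7c lay close to these, at -0.72 ± 0.08 at 36 h, with a 4.86-fold fall by 60 h (log2 -2.28 ± 0.08, adjusted p = 1.25e-09) and a 9.56-fold fall by 72 h (log2 -3.26 ± 0.08, adjusted p = 5.88e-11). The decrease from 36 to 60 h was called in both, at -1.48 ± 0.10 for let-7b and -1.56 ± 0.08 for let-7c. That from 60 to 72 h stayed under 2-fold, at -0.93 ± 0.10 and -0.97 ± 0.08.

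let-7d, let-7e and let-7g peaked at 36 h and were lowest at 72 h relative to U6, whereas with the global mean let-7d and let-7e were below 0 h at 36 h (-1.01 and -0.49). let-7g read -8.74, -8.69 and -8.62 at 0 h, -7.49, -7.23 and -7.26 at 36 h, -8.68, -8.62 and -8.73 at 60 h, and -10.03, -9.90 and -10.02 at 72 h. Its arrays at 0 and 60 h overlapped, whereas the 36 h arrays lay above and the 72 h arrays below all others. It rose 2.57-fold at 36 h (log2 1.36 ± 0.08, adjusted p = 1.06e-07), was at 0.01 ± 0.08 at 60 h (adjusted p = 0.897) and fell 2.46-fold by 72 h (log2 -1.30 ± 0.08, adjusted p = 8.69e-08).

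let-7e, from the cluster with miR-99b and miR-125a, read -5.62, -5.62 and -5.94 at 0 h, -5.03, -4.87 and -4.89 at 36 h, -5.75, -6.02 and -5.84 at 60 h, and -7.12, -7.16 and -7.06 at 72 h. Here too the 0 and 60 h arrays overlapped. The change against 0 h was 0.80 ± 0.10 at 36 h (adjusted p = 4.49e-05, under 2-fold) and -0.14 ± 0.10 at 60 h (adjusted p = 0.205), and let-7e fell 2.61-fold by 72 h (log2 -1.38 ± 0.10, adjusted p = 4.47e-07). let-7d, from the chromosome 13 cluster, read -6.80, -6.88 and -7.01 at 0 h, -6.53, -6.62 and -6.69 at 36 h, -7.50, -7.40 and -7.45 at 60 h, and -8.71, -8.69 and -8.80 at 72 h. Its times did not overlap, but the steps against 0 h at 36 h (0.28 ± 0.07, adjusted p = 0.00372) and at 60 h (-0.55 ± 0.07, adjusted p = 3.33e-05) were small. By 72 h it had fallen 3.57-fold (log2 -1.84 ± 0.07, adjusted p = 1.8e-09).

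The remaining 3 members could not be tested. let-7a, the member found first in worms, had a Ct on all 3 arrays at 36 h, with log2 levels of -10.09, -9.69 and -9.96. At 0 h it had a Ct on 1 of 3 arrays, with a level of -11.47 (Ct 26.88), and at 60 and 72 h on none. let-7f had a Ct at 36 h alone, with levels of -11.24, -11.28 and -11.33, and miR-98 had none on any of the 12 arrays. A missing Ct of let-7a cannot be read as a low level with confidence. Of 1500 combinations of an assay and a group on card A, 104 had a Ct on some but not all of the 3 arrays, and let-7a at 0 h was the 1 among them whose lowest Ct was below 28. No fold change or bound is therefore given for let-7a and let-7f. The passenger strand of let-7a, measured on card B, had a Ct on 12 of 12 arrays, with means of 26.2, 25.3, 26.9 and 28.2 cycles at 0, 36, 60 and 72 h.

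**Figure D1:**
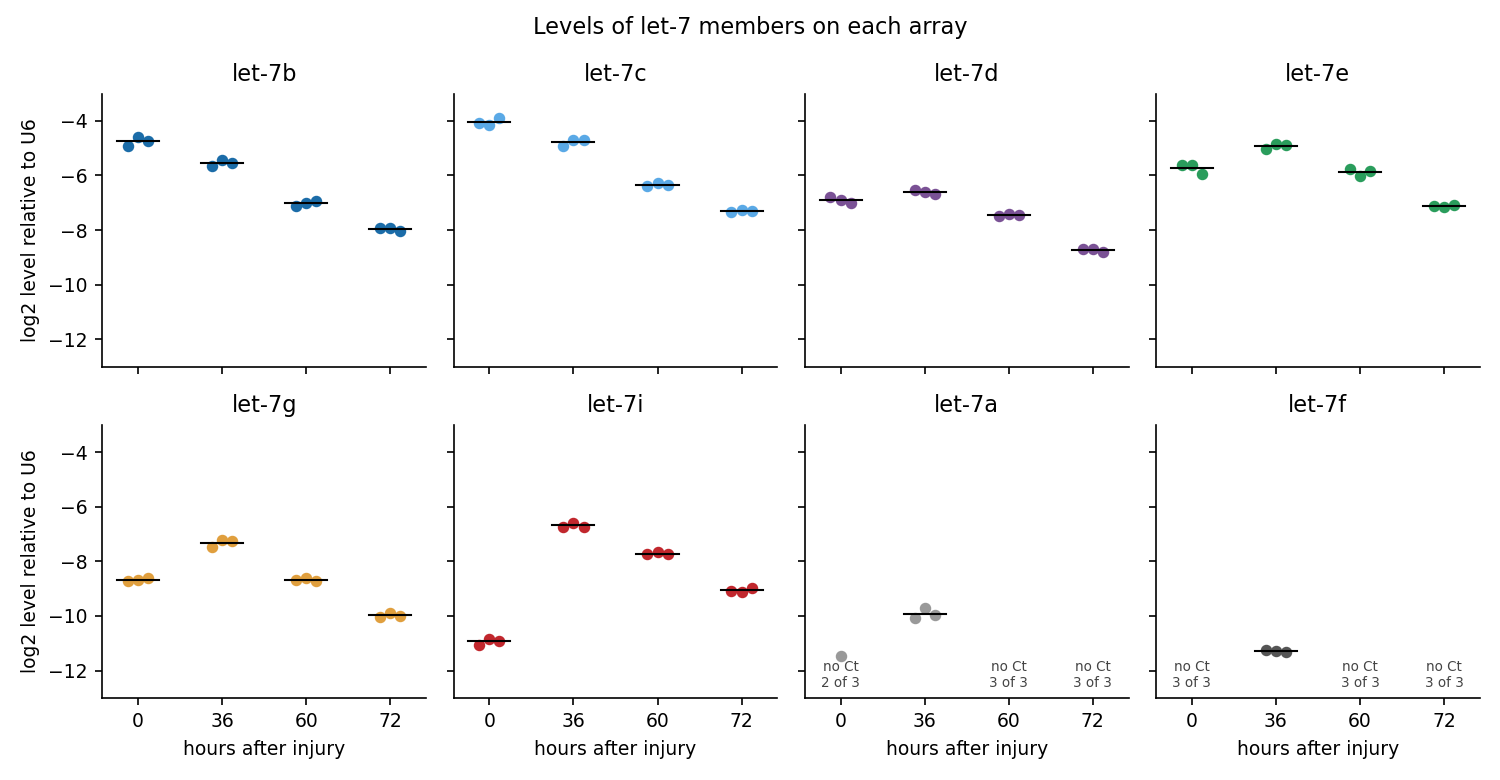
Log2 level relative to U6 (vertical axis) on each of the 3 arrays per time (points) with the group mean (line) against hours after injury, for the 8 members with any Ct; arrays without a Ct are counted in grey text. let-7i climbs from about -10.94 at 0 h to -6.69 at 36 h, while let-7b and let-7c step down at every time.

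The comparison of each later group with 0 h asked how the family differs between quiescent cells and cells activated by injury. At 36 h, 2 of 6 tested members were called higher (let-7g and let-7i) and 0 lower by limma, against 44.1% of all tested assays higher and 12.1% lower (46.3% and 11.9% on card A alone). The 4 others all had an unadjusted p under 0.05 but were under 2-fold. The median change of the 6 members was 0.54, and that of all 272 tested assays 0.82. At 60 h, 1 member was called higher (let-7i) and 2 lower (let-7b and let-7c), against 28% and 36.4% of 250 assays (28.6% and 42.3% on card A alone), with a median of -0.35 for the members and -0.37 for all assays. At 72 h, let-7i was called higher and the 5 other members lower, against 20.9% and 45.9% of 244 assays (20.5% and 54.2% on card A alone), with medians of -1.61 and -0.77. The count at 72 h was 4 higher and 0 lower with snoRNA202, and 1 higher and 2 lower with snoRNA135 and with the global mean. Among assays of card A alone, the medians at 36, 60 and 72 h were 0.91, -0.49 and -1.37. By count and median the 6 members lay near the assays around them at 60 h. The 3 comparisons share the 0 h arrays.

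The later groups were compared with each other to follow the course of activation, and relative to U6 each of the 6 members was lower at each later time, whereas from 36 to 60 h the change was above 0 for 5 of 6 with snoRNA202 and for 4 of 6 with the global mean. Between 36 and 60 h, 4 of 6 members were called lower (let-7b, let-7c, let-7g and let-7i), against 49.5% of 279 assays (56% on card A alone), and 0 higher by limma, against 5.38% (5.43%). Between 60 and 72 h, 4 of 6 were called lower (let-7d, let-7e, let-7g and let-7i), against 35.8% of 265 assays (41% on card A alone), and 0 higher, against 0.755% (1.12%). In both comparisons the 2 other members were also lower with an adjusted p under 0.05, and missed the 2-fold limit. From 36 to 72 h, 6 of 6 were called lower, with log2 changes from -2.12 (let-7d) to -2.66 (let-7g), against 69.3% of 270 assays (77.9% on card A alone), and 0 higher, against 4.07% (3.87%). No member had an unadjusted p under 0.05 in the higher direction in these 3 comparisons. The lower calls from 60 to 72 h numbered 0 with each of the 4 other normalizers, and those from 36 to 72 h numbered 0 with snoRNA202 and with the global mean. The median of all tested assays was -1.02, -0.75 and -1.82 in these 3 comparisons, and that of the members -1.19, -1.26 and -2.39. On card A alone, which holds all the members, the median was -1.27, -0.87 and -2.30.

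The normalizer decided the direction of several members, but not that of let-7i against 0 h. With U6, Y1, snoRNA135, snoRNA202 and the mean of the assays detected on every array (the global mean), let-7i was called higher than at 0 h in 5 of 5 cases. Its change ranged over them from 2.96 to 5.12 at 36 h, from 3.11 to 5.63 at 60 h and from 1.88 to 4.93 at 72 h. let-7b and let-7c were called lower at both 60 and 72 h with 4 of 5 normalizers. With snoRNA202 their changes were 0.13 and 0.12 at 60 h and -0.16 and -0.21 at 72 h. let-7g at 36 h was above 0 with 5 of 5 normalizers, from 0.07 to 2.24, and called with 3 of 5. The decreases of let-7d, let-7e and let-7g at 72 h were called with 2, 2 and 1 of 5 normalizers, and with snoRNA202 these members were higher, by 1.21, 1.66 and 1.75. With the global mean, 0 of 6 members were called by limma in any comparison between later groups.

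**Figure D2:**
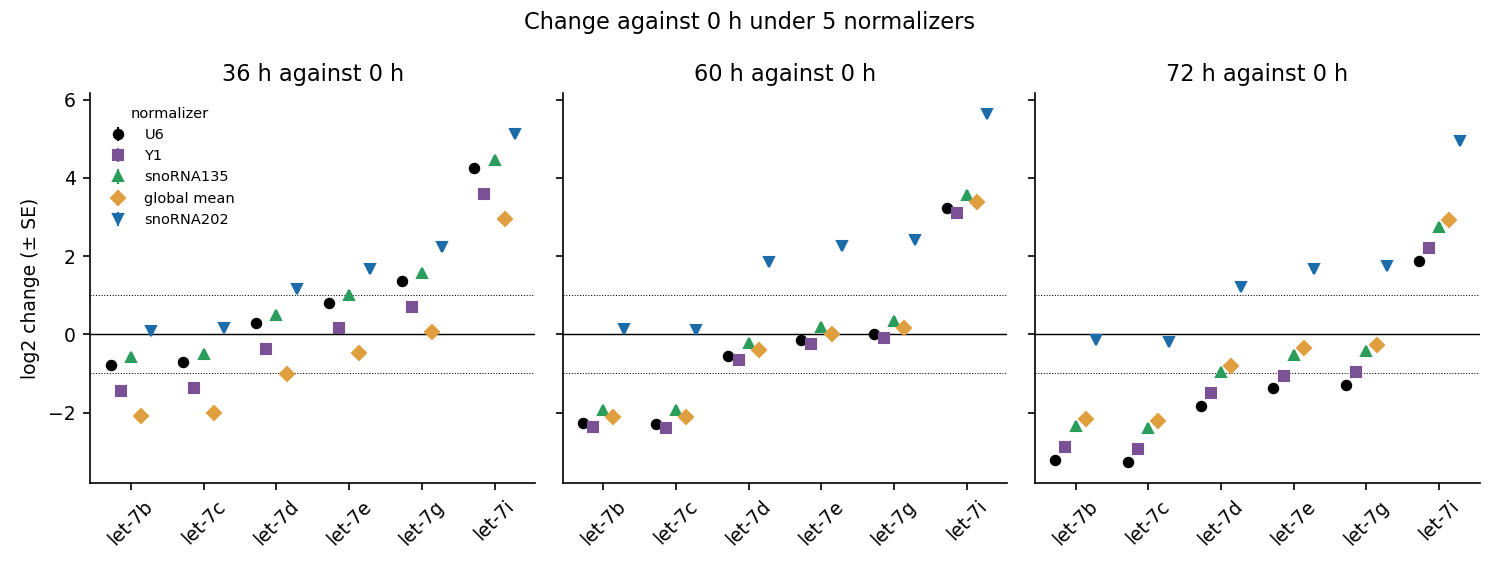
Log2 change against 0 h with its standard error (vertical axis) of the 6 tested members under 5 normalizers (symbols), at 36, 60 and 72 h (panels); dotted lines mark a 2-fold change. let-7i lies above the upper dotted line with every normalizer, and snoRNA202 (blue) gives the highest value in every case.

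Setting each member against the mean of the 6 members on the same array removes the control RNA and shows changes in the balance within the family. let-7i minus the mean of the 5 other members was -5.02, -4.87 and -4.86 at 0 h and -0.81, -0.84 and -0.91 at 36 h. It was -0.67, -0.58 and -0.70 at 60 h, and -0.86, -0.92 and -0.73 at 72 h. The 0 h arrays stood apart and the later arrays lay together. Against those 5 members, let-7i rose 16.7-fold at 36 h (log2 4.06 ± 0.07, adjusted p = 5.45e-12), 19.3-fold at 60 h (4.27 ± 0.07, adjusted p = 3.16e-12) and 16.9-fold at 72 h (4.08 ± 0.07, adjusted p = 4.43e-12). Between later times it moved by 0.21 ± 0.07 from 36 to 60 h (adjusted p = 0.0249), by -0.19 ± 0.07 from 60 to 72 h (adjusted p = 0.0469) and by 0.02 ± 0.07 from 36 to 72 h (adjusted p = 0.821), all under 2-fold.

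Relative to the mean of all 6, 1 member was called higher (let-7i) and 2 lower (let-7b and let-7c) at 36, 60 and 72 h against 0 h. Of the assays on card A, 30.5% were called higher and 23.7% lower on that scale at 36 h, 33.3% and 35.1% at 60 h, and 38.6% and 30.1% at 72 h. let-7b stood at -1.66 ± 0.08 (adjusted p = 2.48e-08) at 36 h, -1.93 ± 0.08 at 60 h and -1.69 ± 0.08 at 72 h, and let-7c at -1.58 ± 0.08 (adjusted p = 2.17e-08), -1.95 ± 0.08 and -1.74 ± 0.08. let-7i is part of that mean and lifts it. With let-7i left out of the reference, a choice made after seeing the data, let-7b was at -0.98 and let-7c at -0.91 at 36 h, just under 2-fold, and let-7g was called higher at 36 h (1.17) and 60 h (1.06). Between later times 0 of 6 members were called on this scale by limma, with changes from -0.36 to 0.36. Of assays on card A, 22.8%, 16.9% and 30.9% were called higher from 36 to 60 h, 60 to 72 h and 36 to 72 h, and 34.2%, 2.25% and 25.4% lower. The 6 members make up the reference, so a change that they share is removed from their values. Other assays are not centred in this way, so the shares on this scale are not a like-for-like background. Some of the members' small steps did have an adjusted p under 0.05, as for let-7d from 36 to 60 h (0.36 ± 0.09, adjusted p = 0.00294).

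**Figure D3:**
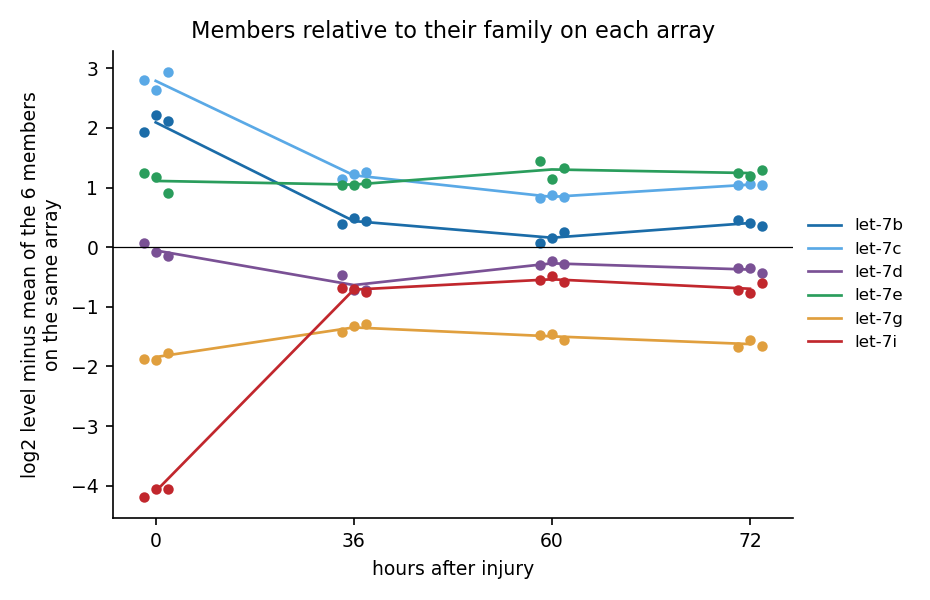
Log2 level of each of the 6 members minus their mean on the same array (vertical axis) against hours after injury, with a point per array and lines through the group means. let-7i moves from -4.05 or lower at 0 h to between -0.77 and -0.48 later, let-7b and let-7c come down, and the later groups keep nearly the same spacing.

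let-7 hairpins lie in clusters with miR-99, miR-100 and miR-125 hairpins, which are conserved partners known to be made from shared primary transcripts, and 5 such miRNAs were measured on card A. By mature strand, miR-99a, miR-100 and miR-125b-5p come from the clusters with let-7c and let-7a, and miR-99b and miR-125a-5p from the cluster with let-7e. miR-125b-5p read -4.42, -4.41 and -4.38 at 0 h, -4.11, -4.08 and -4.12 at 36 h, -6.03, -6.05 and -6.05 at 60 h, and -7.82, -7.75 and -7.80 at 72 h. Relative to U6, after a small step up at 36 h it was lower on every array at 60 h and lower again at 72 h. Against 0 h it changed by 0.29 ± 0.04, -1.64 ± 0.04 and -3.39 ± 0.04 at the successive later times. The changes of miR-99a were 0.31, -1.69 and -3.50, and those of miR-100 0.09, -2.06 and -3.65. let-7c, beside them, was at -0.72, -2.28 and -3.26. Changes of the partners are given with U6 alone, and snoRNA202 itself moved by -2.40 and -3.05 against U6 at 60 and 72 h. Whether the partners keep these directions with that reference was not tested.

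Relative to U6, the pair from the let-7e cluster was above or near its 0 h level at every later time. miR-125a-5p rose 2.53-fold at 36 h (log2 1.34 ± 0.06, adjusted p = 6.33e-09) and was at 0.70 ± 0.06 at 60 h and -0.17 ± 0.06 at 72 h. miR-99b was at 0.93 ± 0.12 at 36 h, rose 2.09-fold by 60 h (log2 1.06 ± 0.12, adjusted p = 1.9e-05) and was at -0.09 ± 0.12 at 72 h (adjusted p = 0.525). let-7e, for comparison, stood at 0.80, -0.14 and -1.38. Of the 5 partners, 1 was called higher and 0 lower at 36 h, 1 higher and 3 lower at 60 h, and 0 higher and 3 lower at 72 h. Over all tested assays the shares were 44.1% higher and 12.1% lower at 36 h, 28% and 36.4% at 60 h, and 20.9% and 45.9% at 72 h. Whether a partner and its let-7 member differ in change was not tested.

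**Figure D4:**
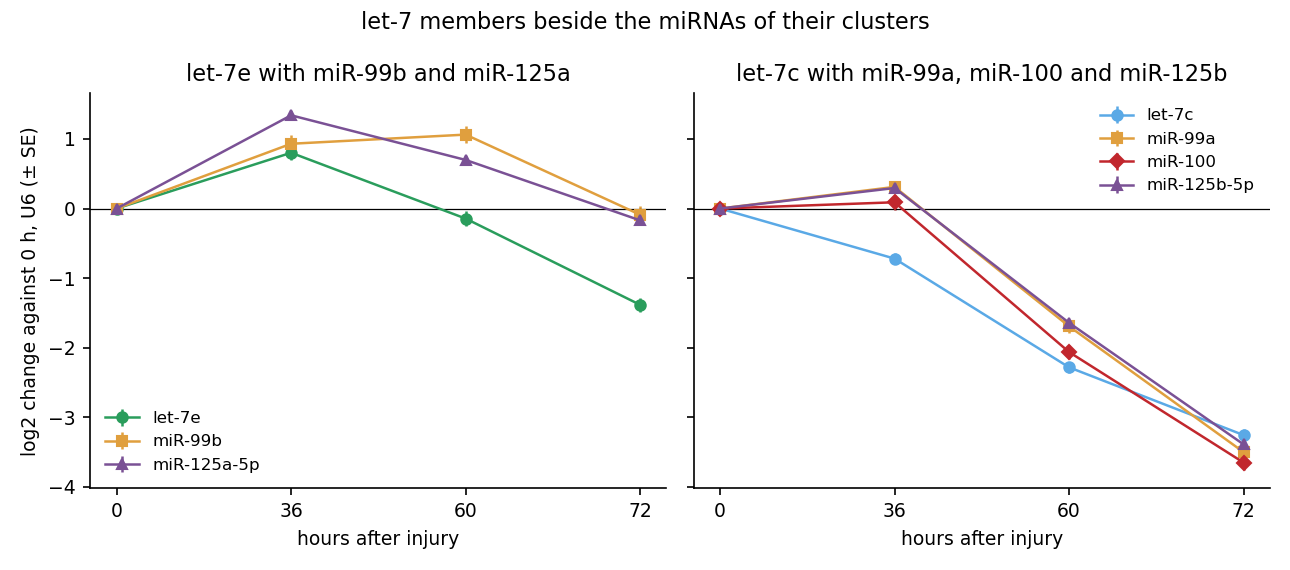
Log2 change against 0 h relative to U6 (vertical axis, bars are standard errors) against hours after injury, for let-7e with miR-99b and miR-125a-5p (left) and let-7c with miR-99a, miR-100 and miR-125b-5p (right). The right-hand miRNAs end between -3.26 and -3.65 at 72 h, and the left-hand partners end at -0.17 and -0.09 with let-7e at -1.38.

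Of the 8 assays for let-7 passenger strands on card B, 3 were detected on 12 of 12 arrays, 4 on some and that of let-7b on none. Those of let-7d and let-7f were each detected on 2 of 3 arrays at 0 h and on 1 at 36 h. At 60 and 72 h neither had a Ct on any array. The let-7a passenger strand was at 0.06 ± 0.13 at 36 h against 0 h and at -0.77 ± 0.13 at 60 h, and fell 3.85-fold by 72 h (log2 -1.95 ± 0.13, adjusted p = 7.49e-08). That of let-7c-1 rose 2.91-fold at 36 h (log2 1.54 ± 0.20, adjusted p = 3.1e-05), whereas let-7c itself was at -0.72, and it was at 0.62 at 60 h and -0.36 at 72 h. The let-7g passenger strand was at -0.31 ± 0.41 at 36 h, when let-7g itself was higher, and fell 3.97-fold by 72 h (log2 -1.99 ± 0.41, adjusted p = 0.000947). Its Ct values at 72 h were 34.2, 32.7 and 34.1, near the detection limit of 35. The passenger strand of let-7i was detected on 0 of 3 arrays at 0 h, on 3 at 36 h (mean Ct 32.1), on 2 at 60 h and on 0 at 72 h. Its Ct values at 72 h were 35.1, 35.5 and 35.6, just past the limit of 35. Its times of detection thus included the peak of let-7i itself. That of let-7e, read with a rat assay, was detected under the limit of Ct 35 at 36 h alone, on 3 of 3 arrays (mean Ct 33.3). At the other times any Ct recorded lay past that limit, from 35.3 to 38.8. Guide and passenger strands were on different cards, each with its own U6 reading. Changes of the passenger strands are given with U6 alone. Whether they keep these directions with another reference was not examined.

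Among 146 other assays detected on all 12 arrays of card A, those most like the mean of the 6 members were miR-24 (Pearson r = 0.984 over 12 arrays), miR-191 (0.980), miR-26b (0.979), miR-30e (0.976) and miR-497 (0.974). The median r of the 146 was 0.813, and all of them share the U6 reading, the card and the same 4 groups. Single members were also set beside these assays, a step added after seeing the data. Both let-7b and let-7c were most like miR-676 (0.997 each), let-7g was most like miR-16 (0.986) and let-7i most like miR-34b-3p (0.993). For let-7d it was miR-497 (0.986), and for let-7e miR-101a (0.976).

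miRNAs enriched in other cell types moved between the groups as well. The summed log2 level of 5 leukocyte miRNAs at 0, 36, 60 and 72 h was -5.38 to -5.34, -3.72 to -3.65, -6.57 to -6.44 and -7.42 to -7.28. That of 2 endothelial miRNAs was -4.52 to -4.44, -2.29 to -2.28, -6.28 to -6.19 and -6.42 to -6.40, and that of 4 mesenchymal and smooth muscle miRNAs was -3.23 to -3.11, -2.76 to -2.70, -6.16 to -6.13 and -6.82 to -6.75. These sums were highest at 36 h, like let-7d, let-7e, let-7g and let-7i. Relative to U6, these sums lay below 0 h at 60 and 72 h, while let-7i lay above it. The sums are given with U6 alone, and snoRNA202 itself moved by -2.40 and -3.05 against U6 at these times. Whether the sums lie below 0 h with that reference was not tested. Single leukocyte miRNAs differed from their sum, with 3 of 5 called higher and 1 lower at 60 h. At 72 h, 2 were called higher and 1 lower. Over all tested assays, 28% were called higher and 36.4% lower at 60 h, and 20.9% and 45.9% at 72 h. The erythroid miRNA miR-451 was detected on 0, 3, 3 and 1 of 3 arrays at 0, 36, 60 and 72 h. The summed level of the epithelial list was -9.22 to -9.05, -8.75 to -8.59, -10.9 to -10.8 and -12.3 to -12.0 in the same order, but it rests on the 1, 3, 1 and 2 of its 3 miRNAs detected on any array at each time. By limma, 4 of 5 leukocyte, 2 of 2 endothelial and 3 of 4 mesenchymal miRNAs were called higher at 36 h, against 44.1% of all tested assays (46.3% on card A). At both 60 and 72 h, 2 of 2 endothelial and 3 of 4 mesenchymal miRNAs were called lower and 0 higher, against 36.4% and 45.9% of all tested assays lower. The 4 muscle miRNAs (miR-1, miR-133a, miR-133b and miR-206) were detected at every time. Of these, 3 were called higher at 36 h and 4 at 60 and 72 h, against 44.1%, 28% and 20.9% of all tested assays. The part of such cells in the changes of let-7 members was not tested.

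The authors' deposited table gives mean folds for day 1.5 and day 2.5 against day 0. For let-7i they are 19.0 and 9.32, for let-7g 2.57 and 1.01, for let-7b 0.578 and 0.207 and for let-7c 0.611 and 0.207. The same deposited table lists 0.711 and 1.01 for miR-98, which had no Ct on any array. The change of U6 alone, with the assay at the same cycle throughout, gives 0.712 and 1.01. For let-7a the authors' deposited table lists 16481 at day 1.5 and 0.675 at day 2.5, and for let-7f 10395 and 1.01. For both of these members, most or all arrays of the 0 h group had no Ct. At 60 h neither had a Ct on any array, so their day 2.5 folds rest on no Ct at that time.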

How the data were processed

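miRNAs were measured in quiescent (0 h) and activated (36, 60 and 72 h) mouse muscle stem cells, on 12 arrays of each card. Per the labels' protocols, Trizol RNA was run on TaqMan rodent cards for 40 cycles on an ABI 7900HT. The deposited files of single arrays hold a Ct per spot, an inverse log2 scale, per the file headers, and no source used here gives the software or threshold behind it. The authors also deposited a table of fold ratios for card A. Its other per-sample columns and those of card B, 84 in all, were not used. The card of an array was read from its assay names. The last time of that table is day 3.5 in its headers and 72 h in the labels, and its values for that time were not used.

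The level was the mean Ct of the 4 MammU6 spots of an array minus the Ct of the assay. An assay counted as detected with Ct values under 35 in every spot. Other values were dropped, and a comparison needed 2 detected arrays in each group. Each card had its own fit over 12 arrays in limma 3.58.1 (R 4.3.3; lmFit, then contrasts.fit and eBayes), with 6 comparisons and Benjamini-Hochberg adjustment over the assays of both cards. Within-family changes used the same fit on card A with levels relative to the mean of the 6 members detected on all arrays. The scripts were tested on simulated data. Errors are standard errors of the log2 change unless named SD.

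All 9 members are named. Partners, passenger strands, cell type lists and the 5 most alike assays (highest Pearson r over 12 arrays to the mean of the 6 members) followed written rules. The members and lists were chosen with earlier results of these data known. Alternatives were 4 other normalizers, U6 averaged per group, detection limits of Ct 32 and 40, undetected values at the limit, the replicate block, fits on 2 groups, a trended variance and leaving out each array.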

Additional observations from a re-analysis of the deposited data

How the results depend on the processing

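Normalization moved the counts of called members most. Higher and lower calls were, with snoRNA202, 4 and 0 at 36, 60 and 72 h against 0 h and 0 in both directions between later groups. With snoRNA135, lower calls were 2 at 72 h against 0 h and 0 from 60 to 72 h. With Y1, calls at 36 h were 1 higher and 2 lower, and lower calls were 1 from 36 to 60 h and 0 from 60 to 72 h. With the global mean, calls at 36 h were 1 higher and 3 lower, lower calls at 72 h against 0 h were 2, and those between later groups 0. With undetected values at the limit, let-7a and let-7f entered the test, with 4 higher calls at 36 h, and calls within the family were 6 at 36 h and 5 at 72 h against 0 h, and 3 each from 36 to 60 h and from 36 to 72 h.

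Signs turned as follows. With snoRNA202, the log2 change was 0.086 for let-7b and 0.16 for let-7c at 36 h against 0 h, 0.13, 0.12, 1.85 and 2.26 for let-7b, let-7c, let-7d and let-7e at 60 h, and 1.21, 1.66 and 1.75 for let-7d, let-7e and let-7g at 72 h. From 36 to 60 h it was 0.048, 0.69, 0.58, 0.18 and 0.50 for let-7b, let-7d, let-7e, let-7g and let-7i, and 0.051 for let-7d from 36 to 72 h. With snoRNA135, let-7e was at 0.19 at 60 h against 0 h. With Y1, let-7d was at -0.37 at 36 h and let-7g at -0.10 at 60 h. With the global mean, let-7d was at -1.01 and let-7e at -0.49 at 36 h, and let-7e at 0.013 at 60 h. From 36 to 60 h let-7d, let-7e, let-7g and let-7i were at 0.61, 0.50, 0.10 and 0.42, and from 36 to 72 h let-7d and let-7e at 0.20 and 0.14. Against the family mean without let-7i, let-7d was at 0.10, 0.50 and 0.36 at 36, 60 and 72 h and let-7e at 0.61 at 36 h. Where the normalizer or reference turned a sign, the shift is that of the reference itself, and which reference is right was not tested.

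Leaving out single arrays turned only values near 0. let-7g at 60 h against 0 h ranged from -0.017 (without QSC replicate 1) to 0.043, and was also below 0 without 60 h replicate 2. Relative to the family mean, let-7e ranged from -0.16 to 0.0062 (without QSC replicate 1) at 36 h and from -0.14 to 0.0092 (without 60 h replicate 1) from 60 to 72 h. let-7i from 36 to 72 h ranged from -0.031 (without 72 h replicate 3) to 0.050, and was also below 0 without 36 h replicate 3. From 36 to 60 h, let-7i missed the 2-fold limit without 36 h replicate 2 (-0.98), and let-7e passed it without 60 h replicate 1 (-1.01). With the replicate number as a block in the paired fit, the calls were 2 higher at 36 h, 1 higher and 2 lower at 60 h, and 1 higher and 5 lower at 72 h against 0 h, as without it. On 152 assays, same-numbered arrays of different groups had deviations correlated from -0.27 to 0.36, above 0.1 in 5 of 18 pairs. For 6 of 12 arrays, the mean correlation with arrays of other groups was highest for those of their own number. The numbers were therefore not taken to pair the arrays. Of the values for single members under all alternatives, 1418 kept direction and call, 37 turned direction, 46 lost and 11 gained a call. let-7a, let-7f and miR-98 were tested only with undetected values at the limit.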
